A study of Homo sapiens with 24 samples.

Results

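The genes described here are *LFNG* and 9 other genes of the Notch pathway: the fringe genes *MFNG* and *RFNG*, the receptors *NOTCH1*, *NOTCH2* and *NOTCH3*, the ligands *JAG1* and *JAG2*, and the target genes *HES1* and *HEY1*. They were taken with every probe that the array carries for them under a single gene symbol, 18 of 30113 such probes, and they are 10 of the 20046 genes named on the array. *LFNG* was chosen by its higher level under the combination on these same arrays, so its response is given below as a description with no test, while the other 9 genes were tested. RNA of HCC1954 and JIMT1 cells had been collected 4 hr after the addition of both agents, either agent alone or DMSO. The agents were BYL719 (1 μM, an inhibitor of PI3Kα) and GSK2334470 (1 μM, an inhibitor of PDK1). Both lines are human breast cancer cell lines with mutant *PIK3CA* that the authors describe as insensitive to BYL719. Each of the 8 groups of line and treatment held 3 Illumina bead arrays, labelled as biological replicates. The p-values below set a difference against the spread between arrays of the same group, estimated over all 8 groups. In RNA of whole cultures, fewer cells that express a gene and less RNA per cell cannot be told apart.

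Notch receptors are activated by ligands of the Jagged and Delta families on a neighboring cell, after which proteases release the intracellular part of the receptor and it enters the nucleus. There it joins the DNA-binding protein RBPJ and switches on genes such as *HES1* and *HEY1*, which encode repressors of transcription. Fringe enzymes, encoded by *LFNG*, *MFNG* and *RFNG*, extend O-linked fucose on the receptor in the Golgi and thereby change which ligands it responds to. In mammary epithelium, Notch signaling takes part in choosing between luminal and basal fates.

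Median intensities ran from 48.5 to 81.9 over the arrays, and each array detected 41% to 45.2% of its probes, that is, with a detection p-value under 0.05 against negative control probes. Arrays of 1 group correlated at r from 0.9893 to 0.9924. Levels are given below as log2 of the background-corrected and quantile-normalized intensity, with an offset of 16 that makes the change of a dim gene look smaller than it is. The epithelial markers *EPCAM*, *KRT8*, *KRT18*, *KRT19* and *ERBB2* were detected on all 24 arrays, and the leukocyte markers *PTPRC* and *CD3E* on 0. Of the other markers of non-epithelial cells, *COL3A1* was detected on 0 HCC1954 arrays and 1 JIMT1 array, *CD14* and *COL1A1* each on 11 HCC1954 arrays and 12 JIMT1 arrays, and *PECAM1* on all 24, with log2 levels of 5.26 to 7.91 for *CD14*, 5.19 to 6.22 for *COL1A1* and 6.04 to 9.61 for *PECAM1*. Their part in the differences between the lines was not tested.

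Among the stretches in front of these genes, those of *LFNG* and *HES1* are shown, because *LFNG* had the largest change of the 10 genes and *HES1* is the classical target of the RBPJ complex. From the RefSeq table used here (GRCh38.p14), 9 promoter windows of 300 bases were taken for 8 of the 10 genes, with 2 for *LFNG*. No window of *MFNG* or *HEY1* was included, so nothing is said of the promoters of these 2 genes. The windows were searched on both strands for TGGGAA, the core letters bound by RBPJ, and for GTAAACA, the core letters bound by FOXO factors. The stretch shown of the first window of *LFNG* lies at chr7:2512279-2512528, the second at chr7:2517613-2517862 within the annotated gene (chr7:2512529-2529177), and that of *HES1* at chr3:194135898-194136147 in front of the gene (chr3:194136148-194138732), all on the plus strand. The 250 bases before each annotated start follow, with TGGGAA in capitals.
LFNG window 1: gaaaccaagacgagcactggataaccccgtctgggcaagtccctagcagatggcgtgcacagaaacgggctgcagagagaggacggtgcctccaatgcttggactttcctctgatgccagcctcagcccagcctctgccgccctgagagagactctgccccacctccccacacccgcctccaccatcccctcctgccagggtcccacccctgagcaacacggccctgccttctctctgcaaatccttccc
LFNG window 2: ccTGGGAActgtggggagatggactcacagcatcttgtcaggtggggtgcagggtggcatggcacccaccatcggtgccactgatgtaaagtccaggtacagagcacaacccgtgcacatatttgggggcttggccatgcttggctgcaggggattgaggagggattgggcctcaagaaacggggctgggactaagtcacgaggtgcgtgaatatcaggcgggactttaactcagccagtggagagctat
HES1: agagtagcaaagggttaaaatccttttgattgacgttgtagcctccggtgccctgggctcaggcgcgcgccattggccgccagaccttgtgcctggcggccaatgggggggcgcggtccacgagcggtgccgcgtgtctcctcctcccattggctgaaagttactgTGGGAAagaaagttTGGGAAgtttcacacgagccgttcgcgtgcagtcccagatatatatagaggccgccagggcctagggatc
The *HES1* window held 2 copies of TGGGAA, at bases -84 to -79 and -70 to -65 before the start. The second *LFNG* window held 1 copy at bases -248 to -243, and the first held a copy on the minus strand that crosses the start, from base -5 to base 1, and is therefore not in capitals. Of 35116 windows in the table, 24% held at least 1 copy of TGGGAA and 3.8% held 2 or more. GTAAACA was in 0 of the 9 windows of these genes and in 3.42% of all windows. These are matches of letters in short windows and say nothing of whether a factor was bound.

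*LFNG* (Lunatic fringe) stood highest in both lines when both agents were present, at 4.93-fold the level of DMSO in HCC1954 and 2.42-fold in JIMT1. In HCC1954 its log2 level was 9.03, 8.91 and 8.86 under the combination, 8.09, 8.09 and 7.96 under BYL719, 7.11, 7.12 and 6.94 under GSK2334470, and 6.68, 6.84 and 6.37 under DMSO. The 4 groups of HCC1954 did not overlap and stood in the order DMSO, GSK2334470, BYL719, combination. In JIMT1 the log2 level was 9.75, 9.65 and 9.71 under the combination, 9.22, 9.18 and 9.19 under BYL719, 8.46, 8.14 and 8.41 under GSK2334470, and 8.39, 8.52 and 8.37 under DMSO. There the combination stood above BYL719 and BYL719 above DMSO without overlap, while the GSK2334470 and DMSO arrays overlapped. Before normalization the intensities in HCC1954 ran from 394.3 to 498.6 under the combination, against 97.11 to 223.9 under DMSO, and in JIMT1 from 641.4 to 1023 under the combination, against 313.8 to 413.1 under DMSO.

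**Figure D1:**
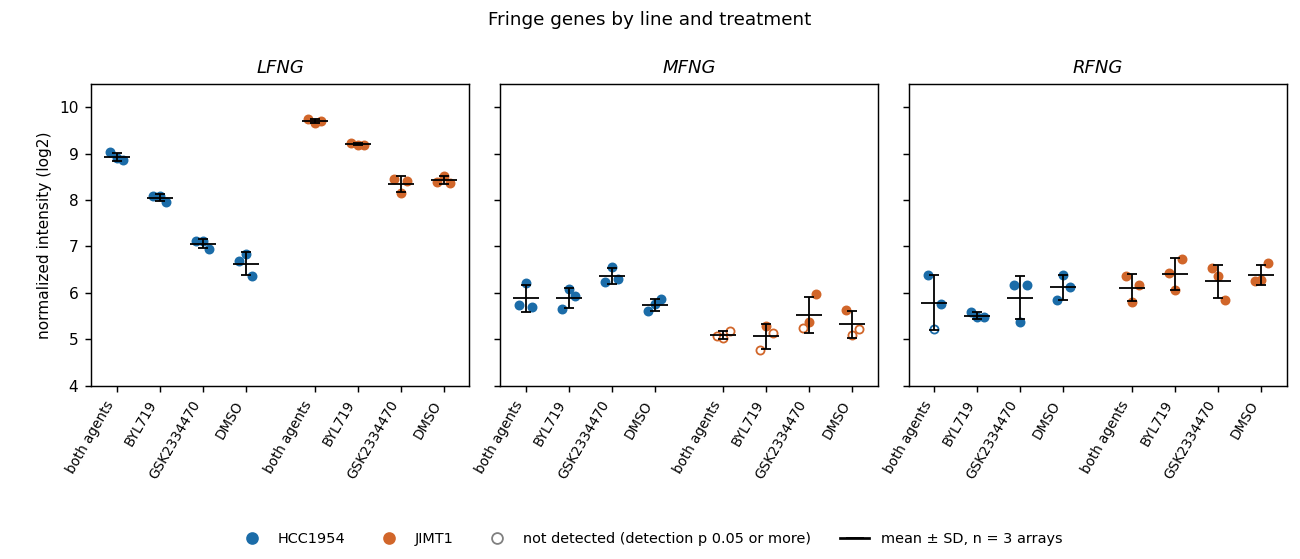
Normalized intensity (log2, vertical axis) of the 3 fringe genes on each array, by treatment within HCC1954 (blue) and JIMT1 (orange), with the mean and SD of 3 arrays as black bars and open circles for arrays on which the probe was not detected. *LFNG* under the combination averages 8.93 in HCC1954 and 9.70 in JIMT1, against 6.63 and 8.43 under DMSO, while *MFNG* and *RFNG* stay between 4.76 and 6.73 throughout.

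Put as differences on the log2 scale, *LFNG* in HCC1954 differed from DMSO by 2.30 under the combination, 1.42 under BYL719 and 0.43 under GSK2334470 (SE 0.10 each). In JIMT1 the differences were 1.28, 0.77 and -0.09 in the same order (SE 0.10 each). With GSK2334470 added to BYL719, *LFNG* stood 0.89 higher in HCC1954 and 0.51 higher in JIMT1 than under BYL719 alone. The combination exceeded the sum of the single-agent changes by 0.46 in HCC1954 and 0.59 in JIMT1 (SE 0.15 each). The difference under the combination was 1.02 larger in HCC1954 than in JIMT1 (SE 0.15), and the gene also started lower there. Ordered by mean level over both lines, the groups ran from HCC1954 DMSO (6.63 ± 0.24) through HCC1954 GSK2334470 (7.06 ± 0.10), HCC1954 BYL719 (8.05 ± 0.08), JIMT1 GSK2334470 (8.34 ± 0.17), JIMT1 DMSO (8.43 ± 0.09), HCC1954 combination (8.93 ± 0.09) and JIMT1 BYL719 (9.20 ± 0.02) to JIMT1 combination (9.70 ± 0.05, SD, n = 3 each). The only neighbors in this order whose arrays overlapped were JIMT1 GSK2334470 and JIMT1 DMSO.

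All of these values come from 1 probe, ILMN_1663080, which was detected on all 24 arrays. The other 2 *LFNG* probes are annotated to another RefSeq transcript of the gene and were each detected on 2 of 24 arrays, with intensities of 33.89 to 76.51 and 32.41 to 78.54. No second probe thus gave a level to set beside the first.

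The 5 genes whose pattern was most like that of *LFNG*, by Pearson's r over the 24 arrays after the mean of each line was subtracted, were *TXNIP* (r = 0.97), *PIK3IP1* (r = 0.97), *CEBPD* (r = 0.95), *ARHGEF3* (r = 0.95) and *FRAT2* (r = 0.95), out of 12108 genes compared. The arrays share their 4 treatments, so r describes a likeness of response and carries no test. *PIK3IP1*, which encodes a negative regulator of PI3K, differed from DMSO by 2.67 under the combination, 1.46 under BYL719 and 0.21 under GSK2334470 in HCC1954 on the log2 scale (SE 0.20 each). *TXNIP*, which encodes a thioredoxin-binding protein that limits glucose uptake, differed by 1.60, 0.95 and 0.13 in the same order (SE 0.11 each). Among Notch genes the closest was *HES2* (r = 0.88, rank 38), with r = 0.96 in HCC1954 and 0.77 in JIMT1. In JIMT1 its probe was detected on 2 combination arrays and on 0 arrays of the other treatments, so most of those values are background. Among the 10 genes r ran down to -0.61 for *NOTCH1*.

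*MFNG* (Manic fringe) and *RFNG* (Radical fringe) passed the test under 0 treatments in either line. *MFNG* was detected on all 12 HCC1954 arrays and on 4 of 12 JIMT1 arrays. Its highest group in HCC1954 was GSK2334470, with log2 levels of 6.23, 6.55 and 6.30, against 5.61, 5.75 and 5.87 under DMSO. These arrays did not overlap, and the difference of 0.62 (SE 0.19) had an adjusted p of 0.157 in limma. For *RFNG* the brighter probe read 5.59, 5.47 and 5.47 under BYL719 in HCC1954, against 5.84, 6.38 and 6.13 under DMSO, a difference of -0.61 (SE 0.26, adjusted p = 0.239). The second *RFNG* probe differed in the other direction, by 0.44 (SE 0.15, adjusted p = 0.169), and was detected on 2 of 3 of these BYL719 arrays and 0 of the DMSO arrays, so the 2 probes disagree and no direction is given for this gene.

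Across the 9 tested genes, 1 passed the threshold of an adjusted p under 0.05 under the combination in HCC1954 (*NOTCH1*, lower) and 1 in JIMT1 (*JAG1*, lower). That is 11.1% of the 9 in each line, where 15.3% of all 12109 genes tested passed in HCC1954 (6.95% higher, 8.30% lower) and 21.4% in JIMT1 (12.5% higher, 8.90% lower). The 9 include *HEY1*, whose probe was detected on 0 HCC1954 arrays and passed the filter on detection through JIMT1 only. Its part in the HCC1954 counts, shares and median below is that of background values. With other settings 1 to 3 of the 9 genes passed in HCC1954, where the share of all genes was 6.62% with median scaling (2 of the 9), 7.84% with no filter on dim probes (1 of the 9) and 16.1% with an offset of 50 (3 of the 9), so on which side of the background these genes fell in HCC1954 turned with the processing. Under BYL719 alone, 0 passed in HCC1954 (background 3.90%, with 1.98% higher and 1.92% lower) and 1 in JIMT1 (*JAG1*, lower, background 11.4%, with 6.26% higher and 5.17% lower). Under GSK2334470 alone, 0 passed in either line (background 0.00826% in HCC1954 and 1.28% in JIMT1). At an unadjusted p under 0.05 in limma, 3 of the 9 genes were counted in HCC1954 under the combination (*NOTCH1*, *JAG2* and *HES1*, beside 27.6% of all genes), 2 under BYL719 (*RFNG* and *NOTCH1*, beside 16.6%) and 3 under GSK2334470 (*MFNG*, *NOTCH1* and *JAG1*, beside 13.8%). In JIMT1 there were 3 under the combination (*NOTCH1*, *JAG1* and *HES1*, beside 33.6%), 2 under BYL719 (*JAG1* and *HES1*, beside 23.2%) and 0 under GSK2334470 (beside 12.3%). The median change of the 9 genes under the combination was -0.23 in HCC1954 and -0.23 in JIMT1, where all genes had a median of 0 in HCC1954 and 0.02 in JIMT1. The arrays of a treatment did not overlap those of DMSO for 2 of the 9 genes under the combination, 2 under BYL719 and 4 under GSK2334470 in HCC1954 (background 28.9%, 21% and 15.9%), and for 5, 2 and 0 in the same order in JIMT1 (background 39.3%, 28.4% and 18.4%). In a test of the combination against the sum of the single agents, 0 of the 9 passed in either line (background 0.0330% in each), with 3 in HCC1954 (*MFNG*, *JAG1*, *HES1*) and 1 in JIMT1 (*HES1*) at an unadjusted p under 0.05, beside 7.94% and 8.22% of all genes.

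**Figure D2:**
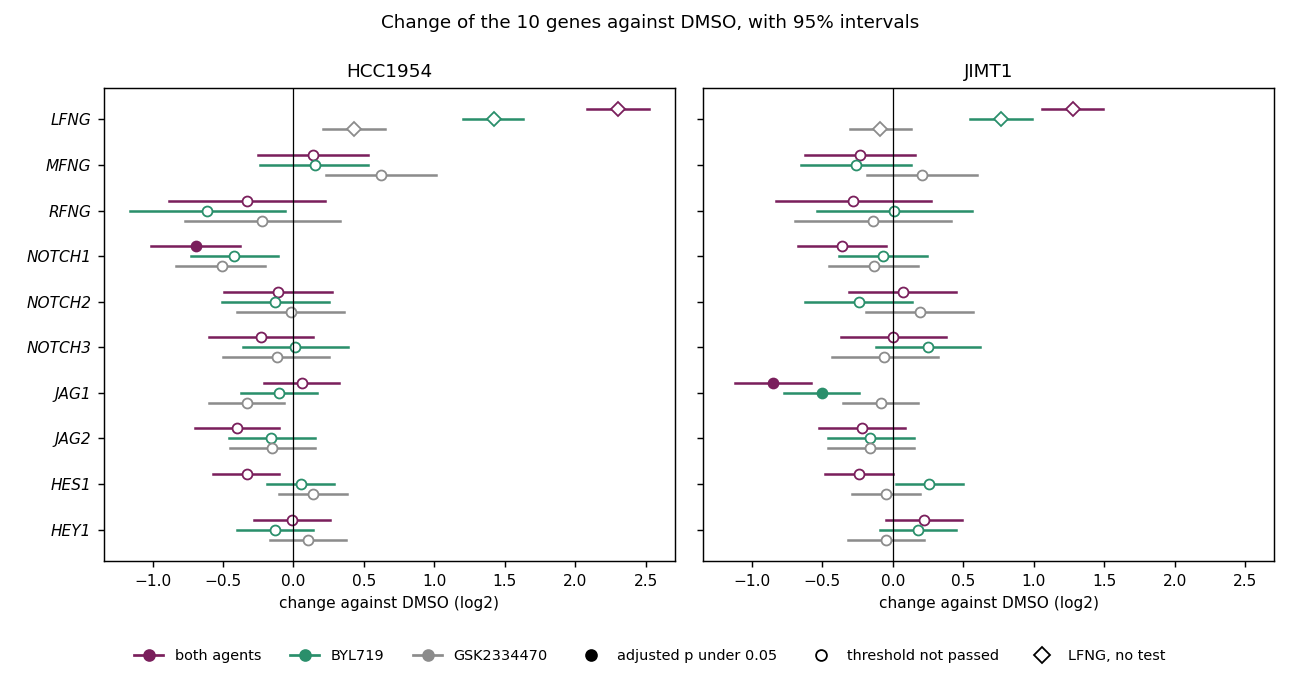
Change against DMSO (log2, horizontal axis) of the 10 genes in HCC1954 (left) and JIMT1 (right) under both agents (purple), BYL719 (green) and GSK2334470 (gray), with 95% intervals from the limma fit, filled circles for an adjusted p under 0.05 and diamonds for *LFNG*, which was not tested. The purple mark of *LFNG* stands at 2.30 in HCC1954 and 1.28 in JIMT1, and the filled circles are *NOTCH1* in HCC1954 (-0.69) and *JAG1* in JIMT1 (-0.85 and -0.50).

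*NOTCH1*, at chr9:136494433-136546048, encodes a receptor that fringe enzymes modify. In HCC1954 its log2 level was 8.14, 8.29 and 8.24 under the combination, 8.29, 8.66 and 8.55 under BYL719, 8.30, 8.67 and 8.24 under GSK2334470, and 8.83, 8.76 and 9.16 under DMSO. All 9 treated arrays lay below all 3 DMSO arrays. *NOTCH1* fell under the combination in HCC1954 (log2 change -0.69, SE 0.15, 1.62-fold, limma's adjusted p = 0.00271). The single-agent changes of -0.42 under BYL719 (SE 0.15, adjusted p = 0.138) and -0.51 under GSK2334470 (SE 0.15, adjusted p = 0.146) did not pass the threshold, and nor did the differences of the combination from BYL719 (-0.28, adjusted p = 0.428) and from GSK2334470 (-0.18, adjusted p = 0.545). In JIMT1 the values were 8.27, 8.11 and 8.32 under the combination, against 8.81, 8.54 and 8.43 under DMSO. Those groups did not overlap either, with a change of -0.36 (SE 0.15, adjusted p = 0.0952), and the difference between the lines in this change, -0.34 (SE 0.21), was not past the threshold (adjusted p = 0.429).

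*NOTCH2* and *NOTCH3*, which encode the other receptors measured here, passed the test under 0 treatments. The largest change of *NOTCH2* against DMSO was -0.24 under BYL719 in JIMT1 (95% interval -0.62 to 0.14), and that of *NOTCH3* was 0.25 under BYL719 in JIMT1 (95% interval -0.12 to 0.62). *NOTCH2* rests on 1 of its 3 probes, since the other 2 were detected on 0 arrays.

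*JAG1*, at chr20:10637684-10673999, encodes a ligand whose signal through the receptor NOTCH1 is known to be weakened by Lunatic fringe. In JIMT1 its log2 level was 6.08, 6.19 and 6.23 under the combination, 6.41, 6.72 and 6.41 under BYL719, 7.23, 6.67 and 6.91 under GSK2334470, and 6.96, 6.99 and 7.09 under DMSO. The combination and BYL719 arrays all lay below the DMSO arrays, and the combination arrays below all others. *JAG1* fell by 0.85 under the combination (log2 change -0.85, SE 0.13, 1.80-fold, adjusted p = 6.17e-05) and by 0.50 under BYL719 (log2 change -0.50, SE 0.13, adjusted p = 0.0131), and differed from DMSO by -0.08 under GSK2334470 (adjusted p = 0.871). The call under BYL719 was lost without JIMT1 BYL719 replicate 1, without BYL719 replicate 3 or without DMSO replicate 3, with adjusted p-values of up to 0.0615, and with median scaling in place of quantile normalization (adjusted p = 0.305). The combination was 0.77 below GSK2334470 alone (log2 difference -0.77, adjusted p = 0.000461, background 11.2%) and its difference of -0.35 from BYL719 did not pass (adjusted p = 0.208).

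In HCC1954 *JAG1* had another order of groups. Its log2 level was 8.90, 9.27 and 8.89 under the combination, 8.67, 9 and 8.93 under BYL719, 8.62, 8.66 and 8.62 under GSK2334470, and 8.91, 8.98 and 9.01 under DMSO. The combination overlapped DMSO (change 0.06, or -0.12 with median scaling, SE 0.13, adjusted p = 0.837), and only GSK2334470 lay below it on every array (change -0.33, SE 0.13, adjusted p = 0.233). The change under the combination differed between HCC1954 and JIMT1 by 0.90 (HCC1954 minus JIMT1, SE 0.18, adjusted p = 0.00528, or 0.27 with median scaling). *JAG1* was the only one of the 9 tested genes past the threshold in that test, where 4.48% of all genes passed. For BYL719 and for GSK2334470 the differences between the lines, 0.40 and -0.25, did not pass (adjusted p = 0.378 and 0.627).

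*JAG2*, which encodes the other Jagged ligand, has 3 probes, of which 1 was detected on 0 arrays. By the brightest probe it was 8.70, 8.90 and 8.63 under the combination in HCC1954, against 9.23, 8.75 and 9.46 under DMSO, groups that overlap through DMSO replicate 2 (change -0.40, SE 0.15, adjusted p = 0.07). In JIMT1 the same probe read 8.04, 8.09 and 7.97 under the combination, against 8.24, 8.23 and 8.28 under DMSO, with no overlap (change -0.22, SE 0.15, adjusted p = 0.314). The second probe gave -0.22 (SE 0.20, adjusted p = 0.569) in HCC1954 and -0.50 (SE 0.20, adjusted p = 0.0936) in JIMT1. Both probes thus gave negative values in both lines, and neither passed the test.

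**Figure D3:**
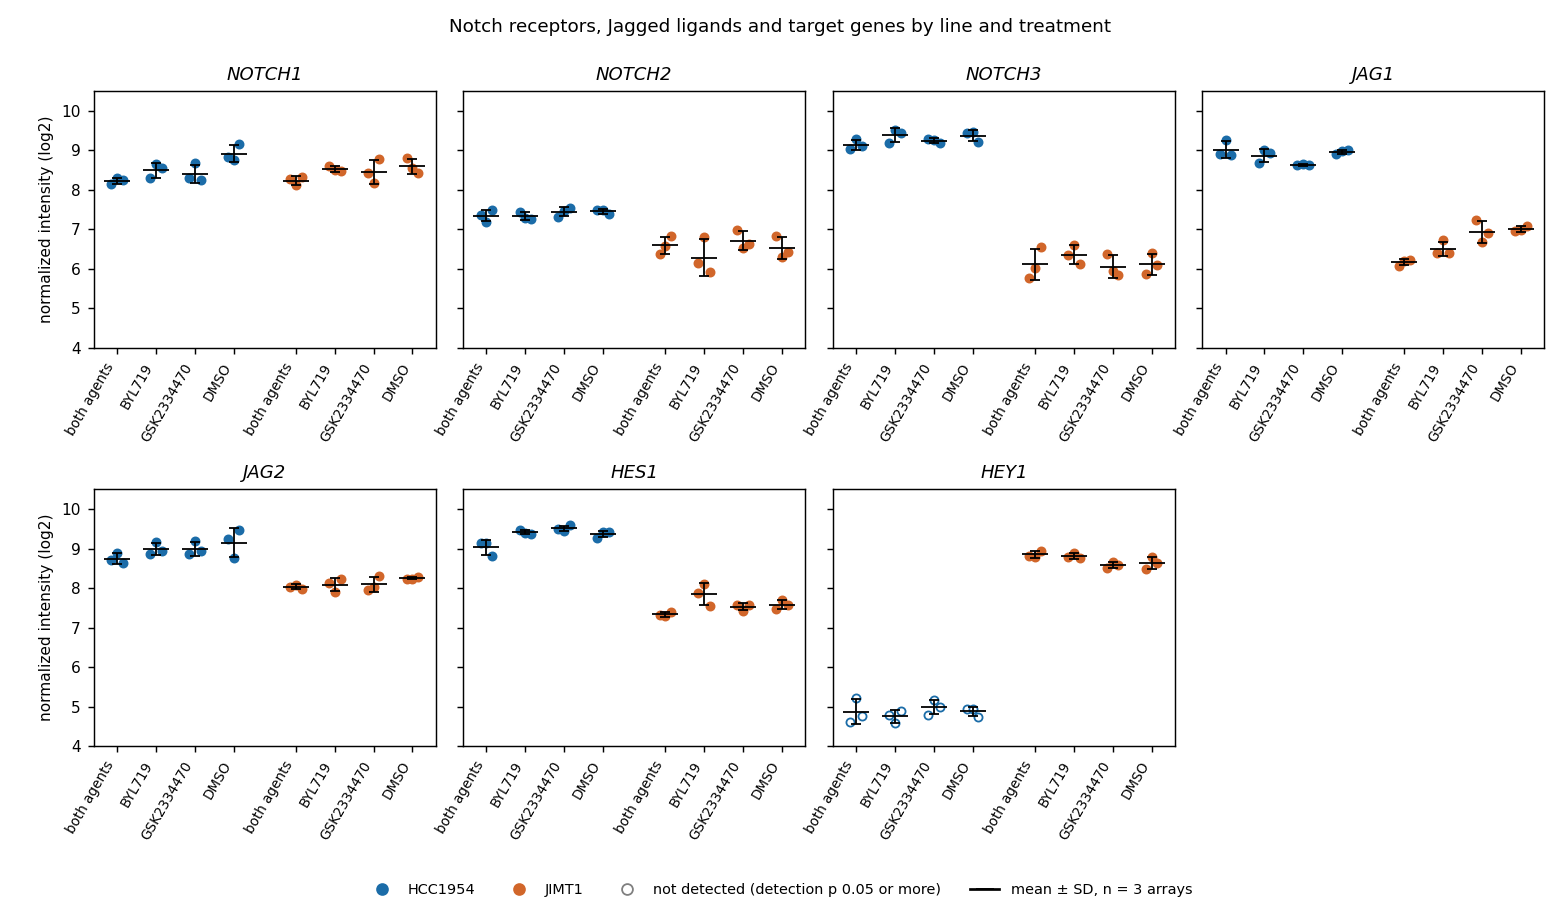
Normalized intensity (log2, vertical axis) of the receptors, Jagged ligands and target genes on each array, by treatment within HCC1954 (blue) and JIMT1 (orange), with the mean and SD of 3 arrays as black bars and open circles for arrays on which the probe was not detected. *NOTCH3*, *JAG1* and *HES1* lie higher in HCC1954 than in JIMT1 on every array, the *HEY1* probe plotted is not detected on any HCC1954 array, and *JAG1* under both agents in JIMT1 averages 6.17, against 7.02 under DMSO.

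*HES1*, the classical target whose promoter is shown above, had its lowest arrays under the combination in both lines. In HCC1954 its log2 level was 9.14, 9.15 and 8.81 under the combination, 9.47, 9.39 and 9.38 under BYL719, 9.49, 9.45 and 9.59 under GSK2334470, and 9.27, 9.42 and 9.41 under DMSO. The combination arrays lay below all others. Against GSK2334470 the difference of -0.48 passed (SE 0.11, adjusted p = 0.0102, background 8.97%), though not without combination replicate 3 or GSK2334470 replicate 3 (adjusted p of up to 0.0794), while the differences of -0.33 from DMSO (SE 0.11, adjusted p = 0.0541) and -0.38 from BYL719 (SE 0.11, adjusted p = 0.0858, background 2.73%) missed the threshold. In JIMT1 *HES1* was 7.32, 7.29 and 7.40 under the combination, 7.87, 8.11 and 7.55 under BYL719, 7.58, 7.43 and 7.58 under GSK2334470, and 7.47, 7.69 and 7.57 under DMSO. The combination arrays were again the lowest. The difference from BYL719 was -0.50 (SE 0.11, adjusted p = 0.0327, background 1.19%), which was lost without any 1 of the combination arrays or without BYL719 replicate 1 or 2 (adjusted p of up to 0.124), and under 4 of 9 other settings, of which median scaling gave the highest adjusted p (0.705). The difference from DMSO was -0.24 (SE 0.11, adjusted p = 0.149).

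*HEY1*, the other target gene, could be followed by its brighter probe in JIMT1 only, where its log2 level was 8.82, 8.79 and 8.94 under the combination, against 8.48, 8.78 and 8.64 under DMSO. The arrays did not overlap by a narrow margin, and the change of 0.22 did not pass (SE 0.13, adjusted p = 0.251). This probe was detected on 0 of 12 HCC1954 arrays. A second *HEY1* probe was dim, did not pass the filter, and was detected on 3 HCC1954 arrays and 7 JIMT1 arrays.

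The levels of the 10 genes without an agent were set against each other next. Under DMSO, 8 of the 10 genes differed between HCC1954 and JIMT1, 6 higher and 2 lower in HCC1954, where 69.7% of all genes tested differed (34.4% higher and 35.4% lower), and 7 of the 10 did not overlap (background 71.2%). *NOTCH3* was 9.43, 9.47 and 9.21 in HCC1954, against 5.86, 6.39 and 6.09 in JIMT1, a difference of 3.25 on the log2 scale or 9.55-fold (SE 0.18, adjusted p = 9.13e-13). *JAG1* was 1.95 higher (3.86-fold, adjusted p = 1.8e-11) and *HES1* 1.79 higher (3.46-fold, adjusted p = 1.24e-11) in HCC1954. *NOTCH2* and *JAG2* were higher by 0.94 (adjusted p = 0.000115) and 0.90 (adjusted p = 1.35e-05), and the second *JAG2* probe also gave a higher level, by 0.66 (adjusted p = 0.00639). *MFNG* was higher by 0.42 with an adjusted p of 0.0497, a call that was lost without DMSO replicate 2 or 3 of either line (adjusted p of up to 0.19) and under 4 of 8 other settings (adjusted p of up to 0.258). *LFNG* was 6.68, 6.84 and 6.37 in HCC1954, against 8.39, 8.52 and 8.37 in JIMT1, and was 3.47-fold lower (log2 difference -1.80, SE 0.10, adjusted p = 2.38e-12). The DMSO arrays are also the baseline of the changes for which *LFNG* was chosen, so this test is not independent of that choice. The brighter *HEY1* probe averaged 4.88 in HCC1954 without being detected, against 8.63 in JIMT1. It was at least 9.64-fold lower in HCC1954 when its level there is set no lower than the dimmest detected probes. Its call in limma (adjusted p = 3.79e-16), counted among the 8, belongs to the fitted difference of -3.75 and not to this bound. The probe passed the filter on detection through JIMT1 arrays only, so the call is not independent of that filter. The second *HEY1* probe was detected on 1 of 3 HCC1954 arrays and 2 of 3 JIMT1 arrays under DMSO and was not tested. By these probes the 2 targets differed between the lines in opposite directions. *NOTCH1* (0.32, adjusted p = 0.0612) did not pass, and for *RFNG* the brighter probe (-0.27, adjusted p = 0.369) did not pass while the second probe was lower in HCC1954 (-0.95, adjusted p = 1.65e-05).

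Around these 10 genes, a wider list of 66 Notch pathway genes was read, of which 51 passed the filter on detection, *LFNG* included. Of the 50 without *LFNG*, 5 rose and 4 fell under the combination in HCC1954 and likewise 5 rose and 4 fell in JIMT1. This is 18% of the list in each line, beside the 15.3% and 21.4% of all genes given above, and the 50 genes had a median change of -0.01 (HCC1954) and 0 (JIMT1). The 5 that rose in JIMT1 include *HES2* and *BHLHE41*, each detected there on 2 combination arrays and 0 DMSO arrays. Both passed the filter on detection through HCC1954 arrays only, so the count and share in JIMT1 rest in part on background values. With median scaling in place of quantile normalization, the calls of *FURIN*, *NCSTN*, *BHLHE40* and *BHLHE41* in HCC1954 and of *NCSTN*, *APH1A*, *DTX3*, *DLL3*, *FBXW7* and *BHLHE40* in JIMT1 were lost, each with its direction kept. Under BYL719 alone, *FURIN* (0.51) and *HES2* (0.73) rose and *HES4* (-0.42) fell in HCC1954, and *NCSTN* (0.23) rose and *JAG1* fell in JIMT1. *BHLHE41* also passed there (adjusted p = 0.0298), but its probe was detected on 0 BYL719 and 0 DMSO arrays of JIMT1 and the call was lost in 6 of 6 fits without 1 array, so no change is read from it. *FURIN*, *HES4* and *NCSTN* each lost the call under BYL719 in 4 of 6 fits without 1 array and with median scaling. *HES2* kept it in 6 of 6 fits without 1 array, and lost it with median scaling (adjusted p = 0.125) and from the authors' processed values (adjusted p = 0.68). Under GSK2334470 alone, 0 of the 50 passed in limma in either line, and 9 in HCC1954 and 1 in JIMT1 had an unadjusted p under 0.05, beside 13.8% and 12.3% of all genes.

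**Figure D4:**
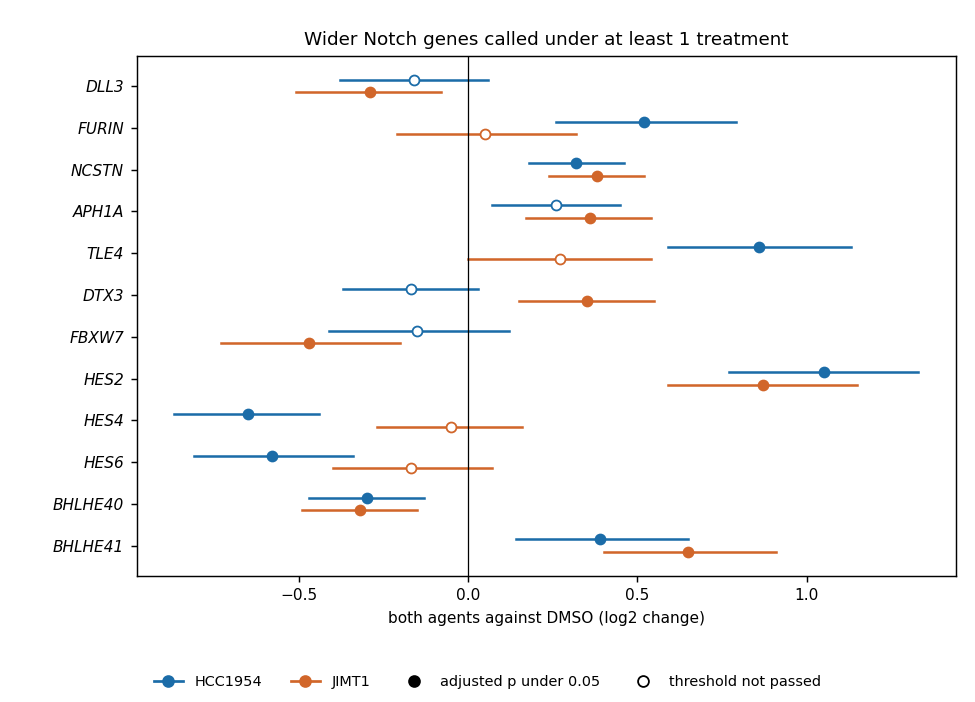
Change under both agents against DMSO (log2, horizontal axis) of the 12 further Notch pathway genes that passed the test under at least 1 treatment, in HCC1954 (blue) and JIMT1 (orange), with 95% intervals and filled circles for an adjusted p under 0.05. *HES2* is highest in HCC1954 (1.05), and *HES4* and *HES6* are lowest there (-0.65 and -0.58). In JIMT1 *HES2* and *BHLHE41* are not detected under DMSO and *DTX3* is not detected in HCC1954, so those marks have no place in an order.

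Of 8 tested genes for proteases that cut the receptor and their subunits, 2 rose and 0 fell in each line, where 6.95% of all genes rose and 8.30% fell in HCC1954 and 12.5% rose and 8.90% fell in JIMT1. With so few genes nothing is read from these counts. *NCSTN*, which encodes the nicastrin subunit of γ-secretase, was 11.21, 11.25 and 11.17 under the combination in HCC1954, against 10.93, 10.89 and 10.86 under DMSO, and 10.43, 10.56 and 10.59 under the combination in JIMT1, against 10.18, 10.09 and 10.17 under DMSO. It rose by 0.32 in HCC1954 (SE 0.07, adjusted p = 0.00234) and 0.38 in JIMT1 (SE 0.07, adjusted p = 0.000339). *APH1A*, which encodes another γ-secretase subunit, rose by 0.36 in JIMT1 (SE 0.09, adjusted p = 0.00753, 0.23 to 0.38 with other settings) and gave 0.26 in HCC1954 (adjusted p = 0.06). A second *APH1A* probe was also detected on every array, and its own change is not given here. *FURIN*, the convertase that cuts the receptor precursor, rose by 0.52 in HCC1954 (SE 0.13, adjusted p = 0.00671, or 0.0517 without combination replicate 1) and gave 0.05 in JIMT1 (adjusted p = 0.812).

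Among 7 tested genes of the HES and HEY families and their relatives, 2 rose and 3 fell in HCC1954, and 2 rose and 1 fell in JIMT1, where 15.3% of all genes passed in HCC1954 and 21.4% in JIMT1. By direction, 6.95% of all genes rose and 8.30% fell in HCC1954, and 12.5% rose and 8.90% fell in JIMT1. The 7 include *HEY1*, which was not detected in HCC1954 by the probe tested, and with so few genes nothing is read from these counts. The 2 that rose in JIMT1, *HES2* and *BHLHE41*, were not detected there under DMSO. *HES2* was 8.39, 8.59 and 8.51 under the combination in HCC1954, against 7.37, 7.45 and 7.52 under DMSO, and rose by 1.05 (SE 0.14, adjusted p = 1.52e-05, or 0.35 from the authors' processed values). It rose by 0.73 under BYL719 alone in HCC1954. In JIMT1 *HES2* was detected on 2 of 3 combination arrays and on 0 DMSO arrays, so that it is given as at least 1.28-fold higher. The adjusted p of 9e-05 there belongs to the fitted change of 0.87 from background values and does not test this bound. *HES4* was 11.44, 11.50 and 11.42 under the combination in HCC1954, against 12.25, 11.96 and 12.10 under DMSO, and fell by 0.65 (log2 change -0.65, SE 0.10, adjusted p = 0.000125). *HES6*, whose product counteracts HES1, fell by 0.58 in HCC1954 (log2 change -0.58, SE 0.11, adjusted p = 0.0012). The JIMT1 values of these genes were -0.05 for *HES4* (adjusted p = 0.756) and -0.17 for *HES6* (adjusted p = 0.311).

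*BHLHE40* and *BHLHE41*, which encode related repressors of the circadian clock, changed in opposite directions. *BHLHE40* fell in both lines, by 0.30 in HCC1954 (log2 change -0.30, adjusted p = 0.0155) and by 0.32 in JIMT1 (log2 change -0.32, adjusted p = 0.0076), and the HCC1954 call was lost without combination replicate 2 (adjusted p = 0.0524). *BHLHE41* rose by 0.39 in HCC1954 (adjusted p = 0.0337), a call lost without combination replicate 2 or 3 or DMSO replicate 1 or 2 (adjusted p of up to 0.111). In JIMT1, where 2 combination arrays and 0 DMSO arrays detected it, it is given as at least 1.14-fold higher under the combination. The adjusted p of 0.000604 there belongs to the fitted change of 0.65 from background values and does not test this bound.

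The other genes of the wider list that passed did so in 1 line each, which does not show that the lines differ. *TLE4*, which encodes a corepressor that HES proteins recruit, was 7.38, 7.17 and 7.22 under the combination in HCC1954, against 6.02, 6.73 and 6.45 under DMSO, and rose by 0.86 (SE 0.13, adjusted p = 8.52e-05), with 0.27 in JIMT1 (adjusted p = 0.142). A second *TLE4* probe was detected on every JIMT1 array, but in HCC1954 on 1 combination, 1 BYL719, 0 GSK2334470 and 0 DMSO arrays. The rise in HCC1954 thus rests on 1 probe, and the change of the second is not given here. In JIMT1 *FBXW7*, whose ubiquitin ligase marks intracellular Notch for degradation, fell by 0.47 (log2 change -0.47, SE 0.13, adjusted p = 0.0121, or 0.0645 without DMSO replicate 3). A second *FBXW7* probe was also detected on every array, and its own change is not given here. Other settings gave *FBXW7* changes of -0.49 to -0.27 in JIMT1. *DTX3*, of the Deltex family, rose there by 0.35 (SE 0.09, adjusted p = 0.0115, or 0.0573 without DMSO replicate 1) and was not detected in HCC1954. *DLL3*, which encodes an atypical Delta ligand, fell there by 0.29 (log2 change -0.29, SE 0.10) with an adjusted p of 0.0494, and that call was lost without any 1 of the combination arrays or without DMSO replicate 1 or 3 (adjusted p of up to 0.139). Of the rest of the list, the ligand genes *DLL1* and *DLL4*, *NOTCH4* and the target genes *HES5*, *HEY2*, *HEYL* and *NRARP*, among others, were too dim to be tested.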

How the data were processed

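RNA of HCC1954 and JIMT1 cells was measured on 24 Illumina HT-12 arrays. The authors deposited mean bead intensity per probe on a linear scale with a detection p-value and bead numbers; GenomeStudio is named in the submitters' processing notes, with no version given in the sources used here. They also deposited processed intensity values, with an unstated method and 28% to 28.1% of them below 0 on each array, which were used only as an alternative.

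With R 4.3.3 and limma 3.58.1, background was corrected from the detection p-values (offset 16), and log2 values were quantile normalized. Of 47323 probes, 21256 were kept because every array of 1 group or more detected them (p-value under 0.05). The 16345 of these with 1 symbol gave 12109 genes, each represented by its brightest probe. A limma model of 8 group means (16 residual and 3.98 prior degrees of freedom) gave 18 contrasts, adjusted by Benjamini-Hochberg over all genes at a threshold of 0.05. Other probes of the 10 genes were tested in a model of all 21256 probes, which was added after the data were seen. A gene detected on 0 arrays of a group was given a bound, from the lowest signal among detected probes on each array or the probe's own value, whichever was higher. Intervals are 95% intervals. The precision is limited by 3 arrays per group. The fits were tested on simulated data.

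The genes and lists were chosen with earlier results of these data known. Named genes were the 10 genes, those of the wider list past the threshold under a treatment or not measured, and the 5 genes most like *LFNG*. Alternatives were the authors' values, median scaling (over all probes, or over detected probes, the second added after seeing the data), an offset of 50, no filter, the mean of probes, a replicate block, array weights, a model of 1 line and leaving out each array.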

Additional observations from a re-analysis of the deposited data

Results flagged for a closer look

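In 2 genes of the Notch list detected in both lines, the change under the combination differed between the lines by a test of the difference itself (limma, adjusted over 12109 genes, of which 4.48% passed). For *JAG1* the change in HCC1954 exceeded that in JIMT1 by 0.90 (SE 0.18, adjusted p = 0.00528), with changes of 0.06 in HCC1954 and -0.85 in JIMT1. Other settings gave 0.68 to 1.08 for this *JAG1* difference, and the call was lost with median scaling over all probes. For *HES4* the difference was -0.60 (SE 0.14, adjusted p = 0.0192), with changes of -0.65 in HCC1954 and -0.05 in JIMT1. Its value under other settings is not given here. The same test passed for *DTX3* (-0.52, SE 0.13, adjusted p = 0.0308), but its probe was detected on 0 HCC1954 arrays, so that a JIMT1 change of 0.35 was set against values at background and no difference between the lines is read from it.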

How the results depend on the processing

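No value past the threshold changed sign under an alternative. Some values that did not pass did, among them *JAG1* under the combination in HCC1954 (0.06, or -0.12 with median scaling over all probes) and *RFNG* under GSK2334470 in HCC1954 (-0.22, or 0.13 with the mean of all probes). The changes of *LFNG* under the combination lay between 2.17 and 2.40 in HCC1954 (2.17 without DMSO replicate 3) and between 1.25 and 1.33 in JIMT1 when single arrays were left out; in HCC1954 the change was 2.51 from the authors' values, 2.12 with median scaling over all probes and 1.97 with an offset of 50. The count of the 9 genes called under the combination in HCC1954, 1 in the report, was 2 with median scaling over all probes (*NOTCH1* and *JAG2*) and 3 with median scaling over detected probes, an offset of 50 or array weights (*NOTCH1*, *JAG2* and *HES1*), all lower, and 1 to 2 when single arrays were left out (2 without DMSO replicate 2). Under GSK2334470 in HCC1954 it was 1 with array weights (*NOTCH1*, adjusted p = 0.0417) and 0 to 1 when single arrays were left out (1 without GSK2334470 replicate 2). In JIMT1 it was 2 under the combination with the mean of all probes (*JAG1* and *JAG2*), and under BYL719 0 with median scaling over all probes and 0 to 1 when single arrays were left out (0 without BYL719 replicate 1 or DMSO replicate 3). Median scaling over all probes also gave 3 calls of the wider list under the combination in JIMT1, against 9 in the report, and 0 of the 9 genes in the difference between the lines (*JAG1* 0.71, adjusted p = 0.27). That scaling moved the median of all genes under the combination in HCC1954 to -0.12 and cut the calls to 802, of which 23.3% were higher, against 1847 with quantile normalization, of which 45.6% were higher; the cause was not tested. The replicate numbers did not pair the arrays (correlations of same-numbered deviations from -0.21 to 0.23 in HCC1954 and -0.12 to 0.10 in JIMT1, with 3 of 12 and 2 of 12 arrays correlating best with their own number). With the replicate block, the counts stayed at 1 in HCC1954 and 1 in JIMT1 under the combination, and the calls of *HES1* against BYL719 (adjusted p = 0.072) and *DLL3* under the combination (adjusted p = 0.057), both in JIMT1, were lost. A slide block was not run, since the headers name no slide. Dim probes near background, as of *MFNG* in JIMT1, limit what can be read of those genes.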
